A study of Mus musculus with 82 samples.

Results

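The accessible chromatin of 9 mouse genes whose products process R-loops was followed in fibroblasts undergoing reprogramming. The genes were chosen by symbol and by no rule on peaks, but with earlier results of these data known. They are Rnaseh1, Rnaseh2a, Rnaseh2b, Rnaseh2c, Ddx5, Ddx17, Dhx9, Top1 and Aqr, 9 of 21887 protein-coding genes on chromosomes 1 to 19, X and Y in RefSeq GRCm38. A peak was taken for a gene when it overlapped the gene, or when its centre lay within 100 kb of a gene end and that end was the nearest of any protein-coding gene. All 9 genes were found, and 61 listed peaks were taken for them over 4 peak lists. Among the 82 samples of the series, 8 are libraries from ATAC-seq, in which a transposase inserts sequencing adapters where chromatin is accessible. These are OG2-MEFs, mouse embryonic fibroblasts, all infected with retroviruses for the OSKM factors Oct4, Sox2, Klf4 and c-Myc. Cells that also overexpressed RNase H1(D209N), a form with a substitution at its catalytic site (called D209N below), were collected at day 7 and day 3. Cells that overexpressed Flag instead, read here as the control, were collected at the same days. Each of these 4 groups has 2 replicate libraries but 1 deposited peak list, so no comparison below has a replicate check and no p-value is given. The ATAC-seq libraries are of mixed cells, so fewer cells with an open site and a less open site in each cell cannot be told apart.

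An R-loop is an RNA:DNA hybrid with a displaced DNA strand, formed when a transcript pairs again with its template. Cells remove the RNA with ribonucleases of the RNase H class, unwind the hybrid with helicases, or limit its formation by relaxing the supercoils behind the polymerase and by packaging and splicing the transcript. RNase H1 acts alone, and RNase H2 is a complex of a catalytic subunit, Rnaseh2a, and the accessory subunits Rnaseh2b and Rnaseh2c. Ddx5 and Ddx17 are paralogous DEAD-box RNA helicases, Dhx9 is RNA helicase A, Top1 is DNA topoisomerase I, and Aqr is an intron-binding helicase of the spliceosome.

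For D209N, 40452 peaks were listed for day 7 and 29189 for day 3. For Flag, 42439 were listed for day 7 and 36375 for day 3. The lists give positions and no signal, so only presence, place and width could be compared. A site without a listed peak may be open below the calling threshold. The narrowest listed peak measured 1 bp in both D209N lists and in Flag day 7, and 2 bp in Flag day 3. A listed width may therefore fall short of the full extent of an open site, and how the edges were set is not known. Read depth is unknown, and width and number of peaks can both move with it. Among fibroblast markers 4 of 6 had a start peak in every list (Col1a1, Col1a2, Vim and S100a4), while Thy1 and Pdgfra had none in any. Of 5 pluripotency markers, D209N cells had a start peak at 3 on day 7 (Esrrb, Zfp42 and Sall4) and 1 on day 3 (Zfp42). Flag cells had it at 2 on each day, Esrrb and Sall4 on day 7 and Zfp42 and Sall4 on day 3. Of the 21887 coding genes, 13543 had a start peak in D209N day 7 and 11655 in D209N day 3. In Flag, 13741 had one at day 7 and 12590 at day 3. Nanog and Dppa5a had none in any list. Of the blood markers Ptprc, Cd52 and Spi1 only Spi1 had a start peak, in each list, and of the endothelial markers Pecam1, Cdh5 and Kdr only Kdr did.

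Promoter sequence is shown for 5 genes, because their start peaks reach into it. They are the genes whose 250 bases before an annotated start lie, in whole or in large part, outside any gene. At Dhx9, Aqr and Rnaseh2c the differences in width described below lie mostly at the edge inside the gene, outside the printed bases. The sequences are from RefSeq, build GRCm38.p6, on the strand of the gene and written 5′ to 3′. They end at the base before the gene, or before its outermost annotated end for Dhx9 and Ddx17, and lie at chr1:153487689-153487910 (minus strand), chr2:160645647-160645896 (plus), chr15:79546765-79546991 (minus), chr2:114175340-114175589 (minus) and chr19:5601623-5601872 (plus). Capitals mark matches on either strand to the GC box GGGCGG, the ETS core CCGGAA, the CCAAT box and the E-box CACGTG.
Dhx9: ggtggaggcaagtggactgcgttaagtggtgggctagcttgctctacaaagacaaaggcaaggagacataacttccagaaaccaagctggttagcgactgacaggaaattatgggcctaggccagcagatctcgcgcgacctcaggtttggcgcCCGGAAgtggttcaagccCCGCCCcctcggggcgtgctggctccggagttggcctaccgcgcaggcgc
Top1: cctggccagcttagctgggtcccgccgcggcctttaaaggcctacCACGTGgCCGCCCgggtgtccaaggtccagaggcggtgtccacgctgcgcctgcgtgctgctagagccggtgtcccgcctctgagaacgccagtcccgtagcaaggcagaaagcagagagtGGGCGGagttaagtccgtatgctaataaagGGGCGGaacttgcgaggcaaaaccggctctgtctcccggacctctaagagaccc
Ddx17: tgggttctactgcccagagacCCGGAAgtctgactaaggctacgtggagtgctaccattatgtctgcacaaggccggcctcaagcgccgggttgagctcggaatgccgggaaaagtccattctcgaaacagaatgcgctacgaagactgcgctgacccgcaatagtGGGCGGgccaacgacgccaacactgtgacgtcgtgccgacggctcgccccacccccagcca
Aqr: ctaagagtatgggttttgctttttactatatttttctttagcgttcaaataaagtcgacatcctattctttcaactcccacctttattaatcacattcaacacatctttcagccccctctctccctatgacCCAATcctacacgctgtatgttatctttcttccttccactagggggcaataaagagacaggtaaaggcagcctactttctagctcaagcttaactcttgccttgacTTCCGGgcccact
Rnaseh2c: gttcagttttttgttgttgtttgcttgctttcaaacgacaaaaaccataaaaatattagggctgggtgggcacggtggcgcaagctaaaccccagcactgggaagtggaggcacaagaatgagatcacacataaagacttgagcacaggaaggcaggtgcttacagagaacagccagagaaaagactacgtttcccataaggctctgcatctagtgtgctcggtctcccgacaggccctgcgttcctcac

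The promoter table held 7 of the 9 genes, with 10 annotated starts among them, 3 for Ddx5, 2 for Ddx17 and 1 for each of the others. In the 250 bases before these starts the ETS core was present in 5 of 10 windows, at Ddx5, Ddx17, Dhx9 and Aqr, and it was present in 15.0% of 21263 promoter windows of protein-coding genes. The GC box was present in 5 of 10, against 42.6% of all, and CCAAT in 3 of 10, against 35.4%. The E-box, which c-Myc can bind, was found at Ddx5 and Top1, in 2 of 10 windows against 6.63% of all. The TATA box sequence TATAAA was found in 2 of 10 windows, against 11.6% of all. It began 30 bp before 1 of the 3 Ddx5 starts and 126 bp before the downstream start of Ddx17. The octamer ATGCAAAT, bound by Oct4, and the AP-1 site TGANTCA were in none of the 10 windows, and in 1.58% and 6.13% of all windows. Over 300 bases, from 250 before to 50 after the start, the windows held between 9 and 34 CpG dinucleotides, with a median of 24.5 against 13 over all windows. Rnaseh2c and Aqr had the fewest, 9 each, and Aqr had the lowest GC content, 45.7%, against a median of 56.3% over all windows. A match is a description of the letters and not a bound site.

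Every gene had a peak at its start in all 4 lists. A start peak here overlaps the 1 kb on either side of an annotated start, or of either gene end for Rnaseh1 and Rnaseh2b, which have no entry in the promoter table. The count of 9 of 9 compares with 52.2% of all protein-coding genes that had a start peak in all 4 lists, and with 53.3% of the genes that have a promoter entry. That background was not limited to genes expressed in these cells, since expression was not used here. Of the taken peaks 37 lay at starts of the gene itself and 24 elsewhere, among them the peaks of Rnaseh2a at the start of its neighbour Prdx2.

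**Figure D1:**
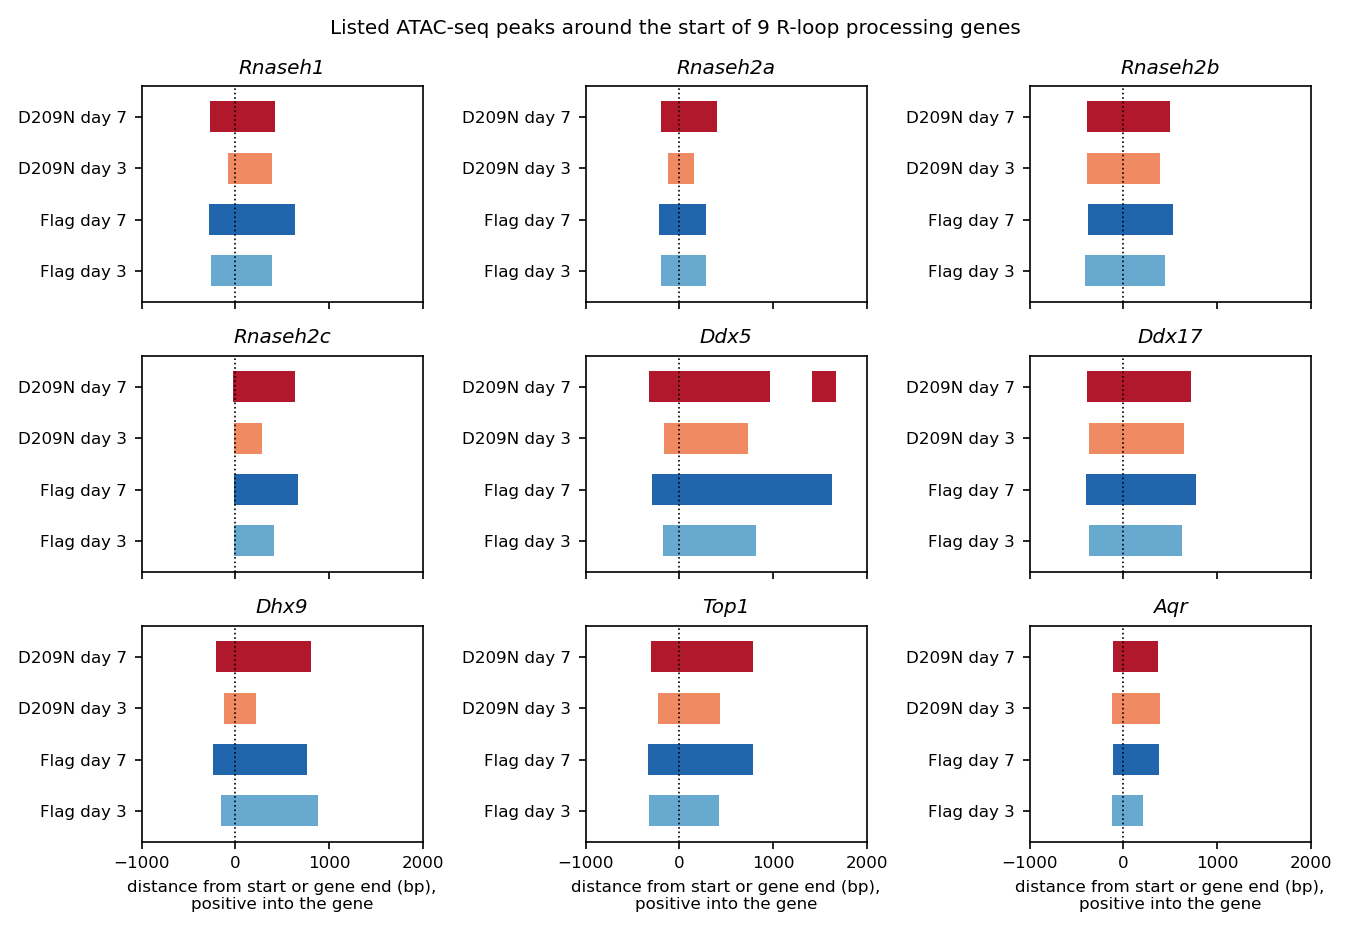
Listed peaks around the start of each gene, in bp from the most upstream annotated start (from the lower-coordinate gene end for Rnaseh1 and Rnaseh2b), positive into the gene; each bar is 1 peak drawn to scale, with the D209N lists above the Flag lists. The Dhx9 bar of D209N day 3 reaches 217 bp into the gene and those of the other lists 762 to 880 bp, and the Ddx5 stretch is split into 2 bars in D209N day 7, against 1 bar in Flag day 7.

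Rnaseh1 (chromosome 12, 28649601 to 28659592) is the gene whose mutant form the D209N cells overexpress. Its start peak ran from 28649329 to 28650022 in D209N day 7, a width of 694 bp, and from 28649522 to 28649991 in D209N day 3, a width of 470 bp. In the Flag lists it ran from 28649324 to 28650243 at day 7, 920 bp, and from 28649344 to 28649996 at day 3, 653 bp. The peak was thus narrower in D209N than in Flag at both days, at 0.754 times the width at day 7 and 0.720 times at day 3. Of coding genes with a start peak in both lists, 6.47% had a lower ratio at day 7 and 19.7% at day 3. The start peak was narrower in D209N at 7 of the 9 genes on each day, against 49.6% of coding genes at day 7 and 71.1% at day 3. The 7 at day 7 include Ddx5, by the wider of its 2 D209N peaks. The remaining 9349 bp of the gene, 93.6% of its length, held 0 peaks in any list, D209N lists included. In every list the peak also extended beyond the annotated gene, by 272 bp in D209N day 7, 79 bp in D209N day 3, 277 bp in Flag day 7 and 257 bp in Flag day 3. Reads from a delivered cDNA would fall on exons. The exon positions were not used here, so the part of vector DNA in the single peak was not tested.

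The subunits of RNase H2 differed in how wide their start peaks were. At Rnaseh2a (chromosome 8, 84956610 to 84969598, minus strand) the start peak measured 597 bp in D209N day 7, 283 bp in D209N day 3, 498 bp in Flag day 7 and 474 bp in Flag day 3. It lay from 84965672 to 84966289 over the lists, around an annotated start at 84966076, inside the outer ends of the gene. D209N day 3 was the narrowest list, at 0.597 times Flag day 3. Rnaseh2a also had a peak over its upper end, which is the outermost 5′ end of this minus-strand gene and is shared with Prdx2, a peroxiredoxin gene. That peak measured 633 bp in D209N day 7, 439 bp in D209N day 3, 729 bp in Flag day 7 and 469 bp in Flag day 3, so both day 7 peaks were wider than both day 3 peaks.

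Rnaseh2b (chromosome 14, 62332068 to 62372996) had start peaks of 886 bp in D209N day 7, 784 bp in D209N day 3, 917 bp in Flag day 7 and 855 bp in Flag day 3. These widths stayed within a narrow range, and the D209N to Flag ratios were 0.966 at day 7 and 0.917 at day 3. A second Rnaseh2b peak lay 16.7 to 16.9 kb beyond the upper gene end, inside Gucy1b2, whose annotated end overlaps Rnaseh2b by 62 bp. It spanned 62389274 to 62390101 over the lists and measured 450 bp in D209N day 7, 469 bp in Flag day 7 and 823 bp in Flag day 3, with no peak in D209N day 3.

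Rnaseh2c (chromosome 19, 5601873 to 5602959, plus strand) is a short gene of 1087 bp. Its only peak measured 666 bp in D209N day 7, 300 bp in D209N day 3, 682 bp in Flag day 7 and 427 bp in Flag day 3. The edge before the start hardly moved, lying 24 bp before it in D209N day 7 and 17 bp before it in the other 3 lists. The edge inside the gene lay 641 bp from the start in D209N day 7, 282 bp in D209N day 3, 664 bp in Flag day 7 and 409 bp in Flag day 3. The peak therefore covered between 67 and 74 of the 300 bases of the promoter window, and nearly all of the difference between lists lay over the gene, which is followed after 54 bp by Kat5.

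Among the helicases, Ddx5 (chromosome 11, 106780355 to 106789185, minus strand) shares its start region with Cep95, a gene on the other strand that overlaps it by 546 bp. In Flag day 7 a single peak of 1920 bp ran from 106787558 to 106789477. In D209N day 7 about the same stretch held 2 peaks, 1290 bp at the start and 251 bp farther inside the gene, separated by 451 bp and spanning 1992 bp together. At day 3 the peak measured 898 bp in D209N and 999 bp in Flag. The additional Ddx5 peak of D209N day 7, from 106787515 to 106787765, thus lies mostly within the stretch that Flag day 7 lists as 1 peak, and all Ddx5 peaks are Cep95 peaks as well.

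Ddx17 (chromosome 15, 79527696 to 79546764, minus strand), the paralogue of Ddx5, had 1 peak in each list, which covered all 300 bases of its upstream promoter window. Its widths were 1114 bp in D209N day 7, 1009 bp in D209N day 3, 1172 bp in Flag day 7 and 992 bp in Flag day 3. Its ratio of D209N to Flag was 0.951 at day 7 and 1.02 at day 3. The second annotated start of Ddx17, at 79532917, had no peak over its window in any list.

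Dhx9 (chromosome 1, 153455756 to 153487688, minus strand) had the lowest ratio of D209N to Flag width among the 9 genes, at day 3. Its start peak measured 1017 bp in D209N day 7, 335 bp in D209N day 3, 1004 bp in Flag day 7 and 1032 bp in Flag day 3. D209N day 3 stood apart, at 0.325 times Flag day 3, and 1.23% of the coding genes with a start peak in both lists had a lower ratio. Most of the difference lay on the side of the gene, where the peak reached 217 bp past the start in D209N day 3, against 806 bp in D209N day 7, 762 bp in Flag day 7 and 880 bp in Flag day 3. On the other side it began 117 bp before the start, against 210, 241 and 151 bp in the same lists. The ETS core of the sequence printed above begins 96 bp before the start and its GC box 78 bp before, and the D209N day 3 peak covered both. A further GC box, 16 bp before the start, lies within the annotated gene and is not printed. A second peak, about 7.0 kb into the gene, measured 259 bp in D209N day 7, 238 bp in Flag day 7 and 290 bp in Flag day 3 and was absent from D209N day 3. At day 7 neither the start peak nor the inner peak set the arms apart, with 1.01 times the start width in D209N.

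Aqr (chromosome 2, 114101161 to 114175339, minus strand) ran the other way at day 3. Its start peak measured 475 bp in D209N day 7, 513 bp in D209N day 3, 496 bp in Flag day 7 and 335 bp in Flag day 3. Flag day 3 was the narrow list, and the D209N to Flag ratio was 1.53 at day 3 and 0.958 at day 7. The upstream edge lay between 106 and 122 bp before the start in all lists, and the inner edge lay at 392 bp in D209N day 3 and 212 bp in Flag day 3. The Flag lists held 2 more sites of Aqr, a 457 bp peak 30.3 kb inside the gene at day 3 and a 268 bp peak 13.6 kb beyond its far end at day 7. Neither site was in a D209N list.

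Top1 (chromosome 2, 160645897 to 160722764, plus strand) had 4 peaks at day 7 and 2 at day 3 in D209N and 5 on each day in Flag. That was more than any other of the 9 genes had, except in D209N day 3, where Rnaseh2a also had 2. Its start peak measured 1092 bp in D209N day 7, 670 bp in D209N day 3, 1117 bp in Flag day 7 and 744 bp in Flag day 3. Both day 7 widths exceeded both day 3 widths. The E-box of its promoter begins 205 bp before the start and lay inside the peak in each list, the nearest edge being that of D209N day 3 at 231 bp. A peak 10.4 kb into the gene was in all 4 lists, with 457 bp in D209N day 7, 443 bp in D209N day 3, 341 bp in Flag day 7 and 475 bp in Flag day 3. A site 54.6 kb into the gene was in both Flag lists, with 390 bp at day 7 and 475 bp at day 3, and in no D209N list. Before the gene, a site between 160578603 and 160579129, in the lncRNA gene Gm14221, had peaks of 514 bp in D209N day 7, 514 bp in Flag day 7 and 462 bp in Flag day 3. Another, 47.9 kb away, was in the day 7 lists alone, with 475 bp in D209N and 388 bp in Flag. The D209N day 3 list held none of the sites before the gene. A peak of 425 bp at 88.8 kb was in Flag day 3 alone.

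**Figure D2:**
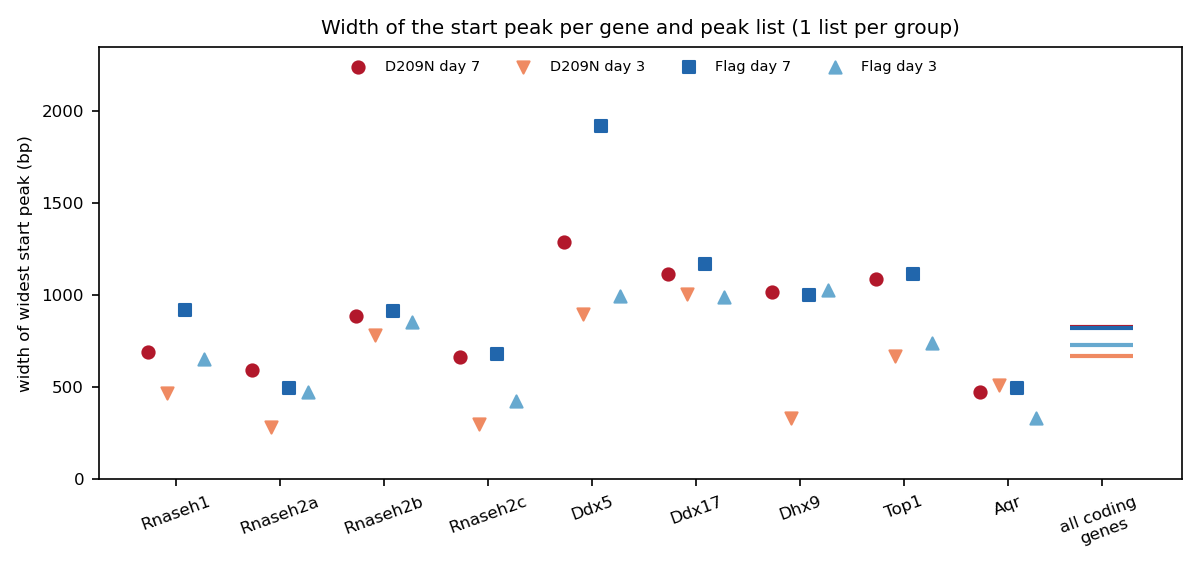
Width in bp of the widest start peak of each gene in each list (1 point per list, no replicates), with the median over all coding genes with a start peak as lines at the right, where those of D209N day 7 (830 bp) and Flag day 7 (823 bp) lie on each other. Dhx9, at 335 bp, is the low point of D209N day 3 among 3 lists near 1000 bp, and Rnaseh2b has the closest points, between 784 and 917 bp.

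Across the 9 genes the median start peak was 886 bp in D209N day 7, 513 bp in D209N day 3, 920 bp in Flag day 7 and 744 bp in Flag day 3. Over all coding genes with a start peak the medians were 830, 669, 823 and 730 bp in the same order. The narrowest of a gene's 4 start peaks was that of D209N day 3 for 7 of the 9 genes and that of Flag day 3 for Ddx17 and Aqr. Among the 11428 coding genes with a start peak in all 4 lists it was D209N day 3 for 65.5% and Flag day 3 for 24.8%, so the members' split lies near the background.

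For the question of how D209N cells differ from Flag cells, start peak widths were set against each other gene by gene, and a change past 1.5-fold was called. At day 3 the median ratio of D209N to Flag was 0.899 over the 9 genes and 0.909 over 11481 coding genes. Dhx9 and Rnaseh2a were called narrower, 2 of 9 against 14.5% of coding genes, and Aqr was called wider, 1 of 9 against 2.34%. The Rnaseh2a call rests on its 1 annotated start. The peak over its upper end, not counted as a start peak, measured 439 bp in D209N day 3 and 469 bp in Flag day 3. At day 7 the median ratio was 0.966 over the 9 genes and 1.00 over 13354 coding genes. None of the 9 was called at day 7, where 3.53% of coding genes were wider and 3.30% narrower. The ratios ran between 0.672 at Ddx5 and 1.20 at Rnaseh2a. The Ddx5 ratio takes the wider of its 2 D209N peaks, 1290 bp. Together these peaks spanned 1992 bp, against 1920 bp in Flag. Between days, the median ratio of day 7 to day 3 was 1.48 in D209N, against 1.27 over coding genes, and 1.41 in Flag, against 1.14. In D209N 4 genes were wider at day 7, Dhx9, Rnaseh2c, Rnaseh2a and Top1, against 29.7% of coding genes, and 0 were narrower, against 0.535%. In Flag 3 genes were wider, Ddx5, Rnaseh2c and Top1, against 16.8%, and 0 were narrower, against 1.56%. Top1 lay just past the threshold in Flag, with 1117 bp at day 7 over 744 bp at day 3. Comparisons between days and between arms share lists, so the high D209N ratio of Dhx9 between days, 3.04, and its low ratio against Flag at day 3 rest on the same 335 bp peak.

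**Figure D3:**
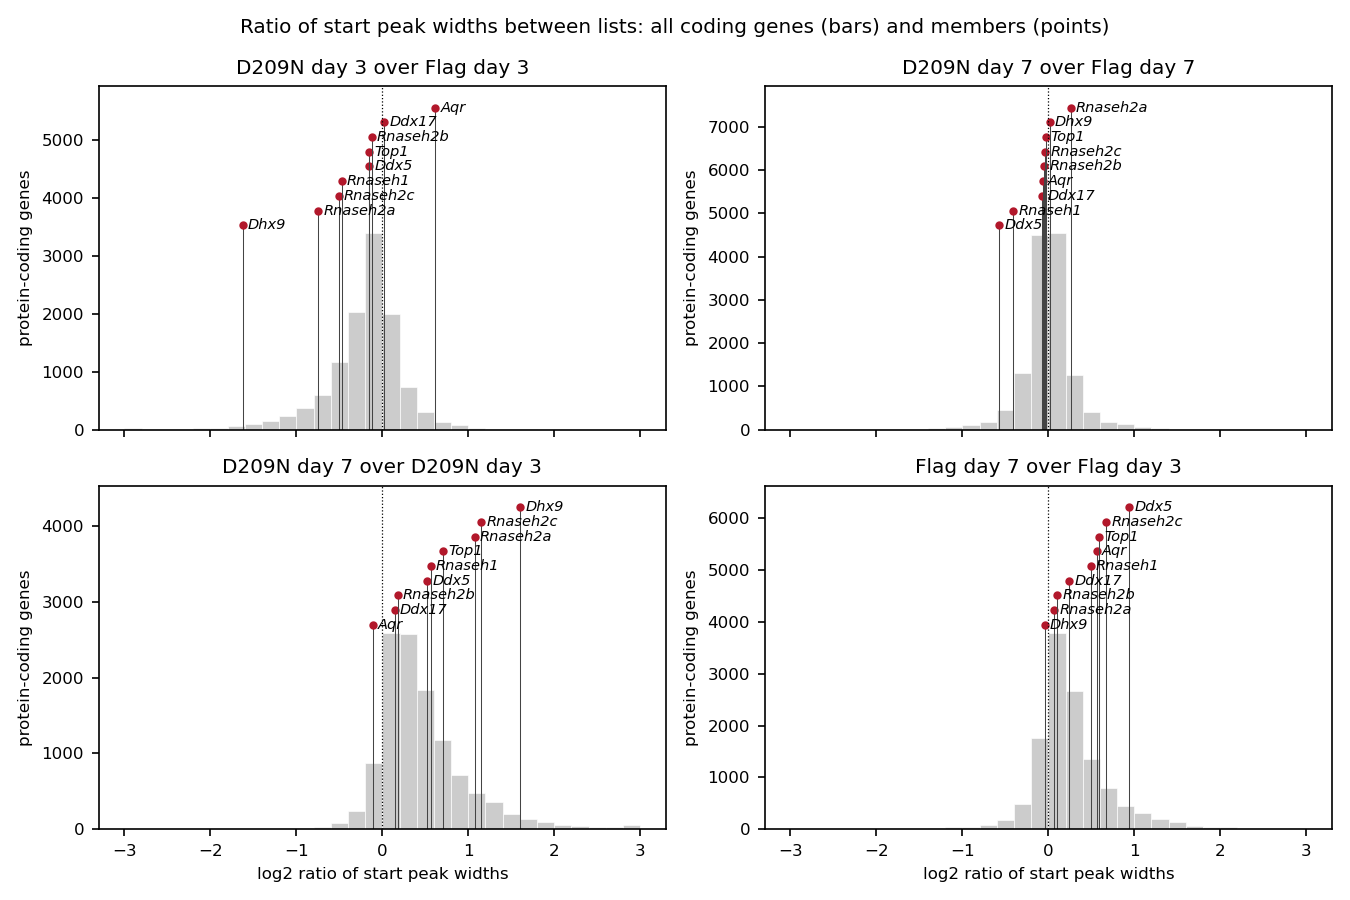
Histograms of the log2 ratio of start peak widths over protein-coding genes with a start peak in both lists of each comparison (bars), with each of the 9 genes as a point at its own ratio; point height is only for legibility. Dhx9 lies in the left tail at day 3 between arms and Aqr in the right. At day 7 between arms the 9 genes lie between 0.672 and 1.20 times. The lowest of these, Ddx5, is by the wider of its 2 peaks in D209N day 7.

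By number of peaks, D209N had fewer than Flag at 4 of the 9 genes at day 3, Rnaseh2b, Dhx9, Top1 and Aqr, against 32.3% of the 16983 coding genes with a peak in any list. It had more at 0 of 9, against 7.61%. At day 7 it had fewer at Top1 and Aqr, 2 of 9 against 23.7%, and more at Ddx5, 1 of 9 against 14.8%, where the additional peak is the one described above. From the side of the days, D209N had more peaks at day 7 than at day 3 at 4 genes, Rnaseh2b, Ddx5, Dhx9 and Top1, against 44.5% of coding genes, and fewer at 0, against 9.16%. In Flag all 9 genes had the same number on both days, where 38.3% of coding genes had more and 15.3% fewer. The Flag sites were not all the same, since Top1 and Aqr each had a site at day 3 only and another at day 7 only. In all, D209N lists held 16 peaks of the 9 genes at day 7 and 11 at day 3, and Flag lists 17 on each day. Over the whole genome the number listed for D209N at day 3 was 0.802 times that for Flag, and the part of list size in these counts was not tested.

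Apart from the additional Ddx5 peak of D209N day 7, which lies at a start, the differences in number were at sites away from starts. Overlapping peaks of the 4 lists were merged into regions, giving 10 regions of the 9 genes at a coding start, the Prdx2 end of Rnaseh2a included, and 9 away from one. All 10 at starts were present in all 4 lists, as were 75.2% of such regions genome-wide. Of the 9 away from starts, 1 was present in all 4 lists, the Top1 site 10.4 kb into the gene, against 27.0% genome-wide. D209N held 5 of the 9 at day 7, against 65.3% of such regions genome-wide, and 1 at day 3, against 43.0%. Flag held 7 at day 7, against 69.2%, and 7 at day 3, against 57.8%.

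**Figure D4:**
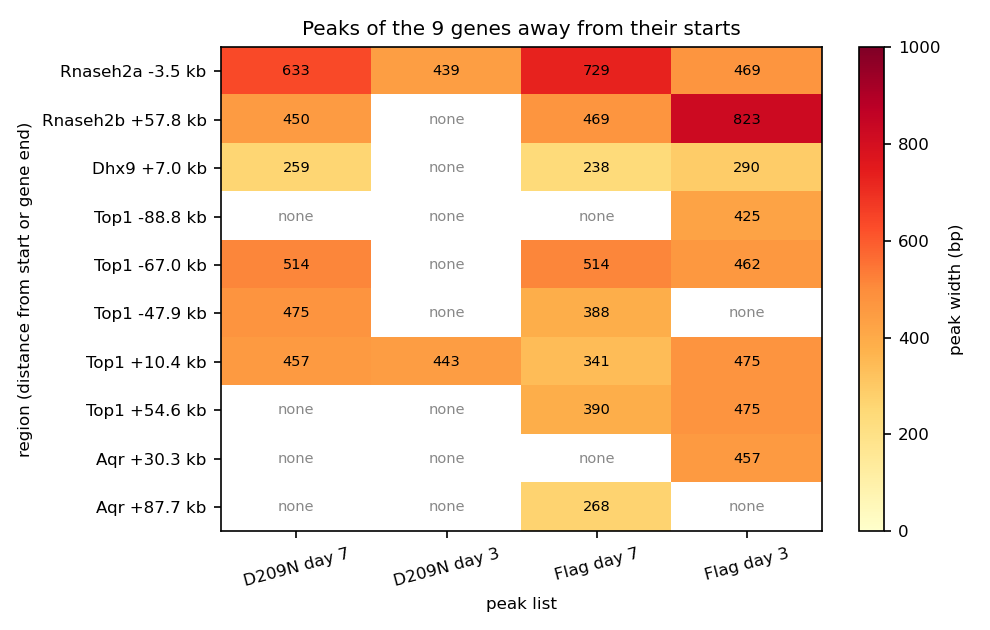
Peak width in bp (colour and number) at the 10 regions of the 9 genes away from their own starts, labelled by gene and distance in kb from its start, or from the lower gene end for Rnaseh2b, in each list. D209N day 3 has a peak at 2 of the 10, the Prdx2 end of Rnaseh2a and the Top1 site at 10.4 kb.

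Close neighbours are common at these loci. Of the 9 genes 5 overlap another protein-coding gene or lie within 100 bp of one, Rnaseh2a, Rnaseh2b, Rnaseh2c, Ddx5 and Ddx17, as do 21.8% of coding genes. A peak that overlapped both genes was taken for both, as at Ddx5 with Cep95 and at the upper end of Rnaseh2a with Prdx2. The start peaks of Rnaseh2a, Rnaseh2b, Rnaseh2c and Ddx17 overlapped no other protein-coding gene. For each gene the coding gene most like it was sought among those with the same number of peaks in each of the 4 lists, by the smallest summed difference in base pairs under these peaks. For Dhx9 this was Pde1b, with a summed difference of 314 bp among 313 such genes, for Top1 it was Camk2g, 924 bp among 5, and for Aqr it was Hexa, 250 bp among 96. For Rnaseh2a it was Ldhb (105 bp), for Rnaseh2b Pi4k2b (323 bp), for Rnaseh1 BC024063 (135 bp), for Rnaseh2c Pet100 (80 bp) and for Ddx17 Cnot3 (58 bp). For Ddx5 it was its neighbour Cep95, which has the same peaks. The likeness is over 4 lists only.

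A further list of 47 R-loop genes, written with earlier results of these data known, was read in the same way. Of these, 44 had a start peak in all 4 lists, where 52.2% of protein-coding genes did: 12 of 14 helicases, 4 of 4 topoisomerases and their partner, 13 of 13 genes of messenger RNA packaging, splicing and termination, 10 of 11 of repair and replication and 5 of 5 other nucleic acid enzymes. In D209N 46 of the genes had it at day 7 and 44 at day 3, and in Flag 46 at day 7 and 45 at day 3. Pif1, a DNA helicase of telomeres and mitochondria, had a peak at a gene end of 533 bp in D209N day 7, 488 bp in Flag day 7 and 516 bp in Flag day 3. In D209N day 3 the nearest peak lay 6.84 kb away. Atad5, which unloads the PCNA clamp from DNA, had a start peak of 363 bp in D209N day 7 and 501 bp in Flag day 7 and none in the day 3 lists. At day 3, D209N had fewer peaks than Flag at 12 of the 47 genes, against 32.3% of coding genes, and more at 2, against 7.61%. The median of the D209N to Flag ratios of start width was then 0.966 over 44 genes, against 0.909 over all coding genes. Of the 44, 6 were called narrower, against 14.5%, and 1 wider, against 2.34%. At day 7 it had fewer at 7 of the 47, against 23.7%, and more at 4, against 14.8%. The median ratio was then 0.987 over 46 genes, against 1.00 over all, and 0 were called, where 3.53% of coding genes were wider and 3.30% narrower.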

How the data were processed

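Each group of 2 replicate ATAC-seq libraries came with 1 deposited peak list of genome positions, in which a peak has a chromosome, start, end and name but no height. Bowtie2 2.3.2, CASAVA and 2 build names, GRCm38.p5 and mm10, appear in the submitters' processing notes. How peaks were called, at which threshold, and from which replicates is not given in the sources used here, and every peak name carries rep1. Lists were matched to groups by the arm and day in these names. Depth is unknown.

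Positions were made 1-based and peaks on chromosomes 1 to 19, X and Y were used. Genes came from the RefSeq table of GRCm38.p6 and starts from its promoter table, which has 17492 of the 21887 coding genes. For the other genes both gene ends served as starts. The width is that of the widest start peak, and overlap meant at least 1 bp. The work used Python 3.11.15, numpy 2.4.6, pandas 2.3.3 and matplotlib 3.10.9, and the assignment was tested on simulated data. With 1 list per group no test was made. Alternatives changed the distance, start window, overlap, peak width minimum and competing genes.

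The members and gene lists were chosen with earlier results of these data known. Named genes were all members, the listed R-loop genes without a start peak in every list, of which 1 is not reported here, and the most alike gene of each member. The wild-type RNase H1 arm and the other assays of the series were not analysed here.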

Additional observations from a re-analysis of the deposited data

Results flagged for a closer look

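At 2 genes the start peak width moved in opposite directions between the days in the arms. At Dhx9 it was 682 bp greater at day 7 than at day 3 in D209N (1017 bp against 335 bp), while in Flag the difference, day 7 minus day 3, was -28 bp (1004 bp against 1032 bp). At Aqr the difference was -38 bp in D209N (475 bp against 513 bp) and 161 bp in Flag (496 bp against 335 bp). The 2 decreases were small, to 0.973 times at Dhx9 in Flag and 0.926 times at Aqr in D209N. Of coding genes, 10.6% had a narrower start peak at day 7 than at day 3 in D209N, and 20.7% in Flag. The share of coding genes with opposite directions in the arms is not given here. With 1 list per group the difference between the arms was not tested, and what caused it was not tested.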

How the results depend on the processing

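Of 90 values recomputed under other settings, 80 stayed within 1.5 times the value given above. When only peaks at least as wide as the median of their list were used, the 9 genes had 10 peaks in D209N day 7, 6 in D209N day 3 and 10 in Flag day 3, and 5 genes had a start peak in all 4 lists. Then 1 gene had more peaks in D209N than in Flag at day 3 and 0 had more at day 7. Between the days, 1 gene had fewer at day 7 than at day 3 in D209N, and in Flag 3 had more and 1 fewer. When genes of all kinds competed for a peak, 2 genes had more peaks at day 7 than at day 3 in D209N. Shares over all coding genes are not given under these settings, so the counts here have no background beside them. Fewer peaks pass a width limit by its construction. The cause was not tested otherwise.

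No paired analysis was possible because each group has 1 list, and replicates could not be left out for the same reason. Positions without signal or depth limit what absence of a peak can show.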
